A study of Mus musculus with 2 samples.

Results

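The miRNAs described here are 2 sets that mark non-immune cells of the gut wall. The stromal set is mmu-miR-199a, mmu-miR-199b and mmu-miR-214, which are used as markers of fibroblasts and other mesenchymal cells. The endothelial set is mmu-miR-126a, which comes from a gene of vascular endothelium, and mmu-miR-126b, from the opposite strand of that locus. Both sets were measured in total RNA of mononuclear cells that had been isolated from the lamina propria of the colon. The donors were male mice of the Balb/c strain. The specific pathogen-free (SPF) animals, colonised by gut microbes, and the germ-free animals, raised without any, were each represented by 1 array. The 5 miRNAs were chosen with earlier results of these data known. Their probes were then taken by name, with every arm, whatever the signal. This gave 9 of the 1900 mouse miRNA probes, 5 stromal and 4 endothelial, each with 1 spot per array. The labels do not give the number of animals behind each array, their age, or a marker used to select the cells. In RNA from such a mixed isolate, fewer cells of a type and less of a miRNA per cell cannot be told apart. A single array per group allows neither a replicate error nor a test, and all values describe these 2 arrays.

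A miRNA hairpin yields a 5p and a 3p strand, and either can be loaded into Argonaute, where bases 2 to 8 of the strand, the seed, pair with target mRNAs. miR-214-3p is known to repress Ezh2, and miR-199a-3p to repress Mtor and Met. miR-199a and miR-214 are made from a long noncoding RNA, Dnm3os, which is active in mesenchyme and is switched on by Twist1. miR-126-3p supports signalling by vascular endothelial growth factor by repressing Spred1 and Pik3r2, and beside endothelium it is found in platelets, haematopoietic stem cells and plasmacytoid dendritic cells.

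The mature sequences show which members can be told apart by a probe and which share targets, and for that reason 7 sequences, of 8 of the 10 member names, are printed from RefSeq (GRCm38.p6), 5′ to 3′, with the seed in capitals.
miR-199a-3p and miR-199b-3p: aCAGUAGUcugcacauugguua
miR-199a-5p: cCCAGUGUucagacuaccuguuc
miR-214-3p: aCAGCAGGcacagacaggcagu
miR-214-5p: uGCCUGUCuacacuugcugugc
miR-126a-3p: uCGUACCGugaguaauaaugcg
miR-126b-5p: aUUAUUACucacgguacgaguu
miR-126b-3p: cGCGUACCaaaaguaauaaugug
The 3p strands of miR-199a and miR-199b are identical, and the array has 1 probe for both. Apart from that pair, the seeds of the strands printed here all differ. Whether miR-199a-5p and miR-199b-5p share a seed cannot be read from these sequences, because miR-199b-5p is not among them. Among the other mouse miRNAs compared, only miR-761 carries a seed printed here, that of miR-214-3p. The comparison left out the miRNAs of 1 chromosome by a set filter. It also did not cover the seeds of miR-199b-5p and miR-126a-5p, which are not printed.

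The genes lie in 4 places (GENCODE M21, GRCm38; the files carry no coordinates). Mir199a-2 (chromosome 1, 162217814 to 162217923, plus strand) and Mir214 (162223368 to 162223477, plus strand) are 5444 bases apart. Both overlap exons of the noncoding gene Dnm3os on the same strand, in 5 and 3 of its 6 annotated transcripts, and both are antisense to Dnm3, in intronic sequence. Mir199a-1 (chromosome 9, 21496495 to 21496564, minus strand) and Mir199b (chromosome 2, 32318460 to 32318569, plus strand) are antisense to introns of Dnm2 and Dnm1. A signal for miR-199a-5p or the shared 3p strand can therefore come from more than one locus. Mir126a (chromosome 2, 26591357 to 26591429, plus strand) lies within Egfl7, an endothelial gene, on its strand, in an intron of 8 transcripts and overlapping an exon of 1 of 19. Mir126b (26591363 to 26591420) is the minus strand of the same hairpin locus, so that 19 bases of miR-126b-5p are the exact complement of miR-126a-3p.

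Background was the mean of the 896 spots named BLANK, an intensity of 158.4 on the SPF array (SD 5.52) and 128.5 on the germ-free array (SD 4.53). A probe counted as above the floor when its signal exceeded that mean by 2 SD, which corresponds to signals of 169.4 and 137.6. This floor is permissive, since 70.7% of the 174 spots without a probe exceeded it on the SPF array and 66.7% on the germ-free array. The mean + 2 SD of those spots, 202.2 on the SPF array and 165.8 on the germ-free array, is given as a stricter level. SPF net values were multiplied by 0.854 so that the 1464 miRNAs that passed the floor on each of the 2 arrays had equal medians.

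All 5 stromal probes lay above both levels on both arrays, but only 1 of the 4 endothelial probes did. Neither level takes account of the local background around each spot. On the germ-free array that background was 495.2 at miR-199a/b-3p, above the signal, and 353.7 at miR-199a-5p, close to it. Detection of these 2 probes there therefore rests on the choice of background. miR-214-3p was the brightest member, with a deposited signal of 741.6 on the SPF array and 757.1 on the germ-free array, above 85.6% and 87.1% of all miRNA probes. The shared miR-199a/b-3p probe followed with 501.9 on the SPF array and 417.6 on the germ-free array. miR-199a-5p gave 404.7 on the SPF array and 372.2 on the germ-free array. On each array these 3 probes outranked more than 75% of the miRNA probes.

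miR-199b-5p gave 367.7 on the SPF array and 297.5 on the germ-free array. The passenger arm miR-214-5p was the weakest stromal probe, with 208.4 on the SPF array and 173.3 on the germ-free array, just above the level of spots without a probe. The order of the 5 stromal probes was the same on both arrays. Differences between probes also reflect how well each probe binds, so the order is not an order of molecule numbers.

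miR-126a-3p, the guide strand of the endothelial miRNA, gave 251.9 on the SPF array and 195.4 on the germ-free array, near the middle of all probes (percentiles 59.8 and 55.8). Its partner miR-126a-5p gave 167.0 on the SPF array, under the floor there, and 152.1 on the germ-free array, above the floor but under the level of spots without a probe. miR-126b-3p gave 153.8 on the SPF array and 128.4 on the germ-free array. miR-126b-5p gave 155.5 on the SPF array and 125.3 on the germ-free array. All 4 of these miR-126b values lay within 1 SD of the blank mean, so the antisense miRNA was not detectable on either array.

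**Figure D1:**
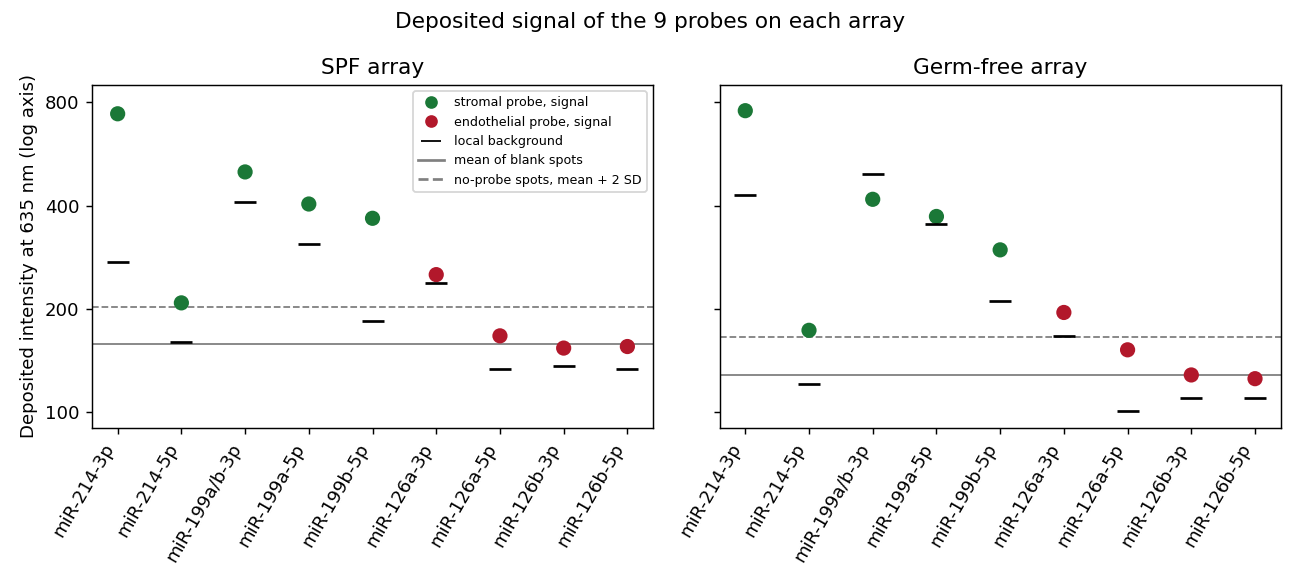
Deposited intensity at 635 nm (log axis, no background subtraction or scaling) of the 9 probes on the SPF array (left) and the germ-free array (right), 1 spot each. Points are spot signals, short black lines the local background around each spot, grey lines the mean of the blank spots and dashed lines the mean + 2 SD of spots without a probe; the 5 stromal probes and miR-126a-3p lie above the dashed line on both arrays, the other 3 endothelial probes under it.

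The question of the comparison was how these levels differ between SPF and germ-free mice. No member above the floor on both arrays differed by 2-fold or by 1.5-fold, 0 of 6 in each case. Of all 1464 such miRNAs, 2.94% differed by at least 2-fold and 12.3% by at least 1.5-fold, so that a count of 0 among 6 is near the background. The 2-fold count over all miRNAs was 23 higher and 20 lower on the SPF array, against 38 and 9 without scaling and 16 and 32 with scaling on bright control probes. The error of each difference was estimated within arrays, from the SD of 4 bright control probes with 8 spots each (0.092 on the log2 scale) and the SD of the blank spots, and is called technical SD. It holds no spread between arrays, animals or labelling reactions.

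Among the stromal probes, miR-214-3p was furthest from 0. Its net scaled intensity was 498.0 on the SPF array and 628.6 on the germ-free array, a log2 SPF over germ-free of -0.34 (technical SD 0.13). miR-199a-5p had 210.3 on the SPF array and 243.7 on the germ-free array, a log2 value of -0.21 (technical SD 0.14). These were the 2 stromal probes whose difference exceeded their technical SD, by 2.56 and 1.56 times. Neither left the middle 90% of miRNAs in similar brightness (146 miRNAs each), which ran from -0.61 to 0.44 for miR-214-3p and from -0.71 to 0.43 for miR-199a-5p. Without scaling miR-214-3p was at -0.11 and miR-199a-5p at 0.02, both within their technical SD.

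The other 3 stromal probes differed by less than their technical SD. miR-199a/b-3p had 293.3 on the SPF array and 289.1 on the germ-free array, a log2 value of 0.02 (technical SD 0.13). miR-199b-5p had 178.7 on the SPF array and 168.9 on the germ-free array, a log2 value of 0.08 (technical SD 0.14). miR-214-5p had 42.7 on the SPF array and 44.8 on the germ-free array, a log2 value of -0.07 (technical SD 0.25). The signs of these small values depended on scaling: miR-214-5p was above 0 without scaling, the other 2 were below 0 with scaling on the control probes, and miR-199a/b-3p also without background subtraction. The median of the 5 stromal probes was -0.07, beside -0.05 for all 1464 miRNAs.

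miR-126a-3p was the single endothelial probe with a value on both arrays, with a net scaled intensity of 79.9 on the SPF array and 66.8 on the germ-free array. Its log2 value was 0.26 (technical SD 0.18), inside the middle 90% of miRNAs of its brightness, which ran from -0.48 to 0.58. miR-126a-5p, under the floor on the SPF array, can only be given as a bound, a log2 value of -1.32 or lower, or at least 2.49-fold lower with the SPF value set to its floor of 9.43. The germ-free net value behind that bound was 23.5, which is within the range of spots without a probe. The arms of miR-126a thus stood on opposite sides of 0, with the weaker arm too faint for that to be read as a difference.

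**Figure D2:**
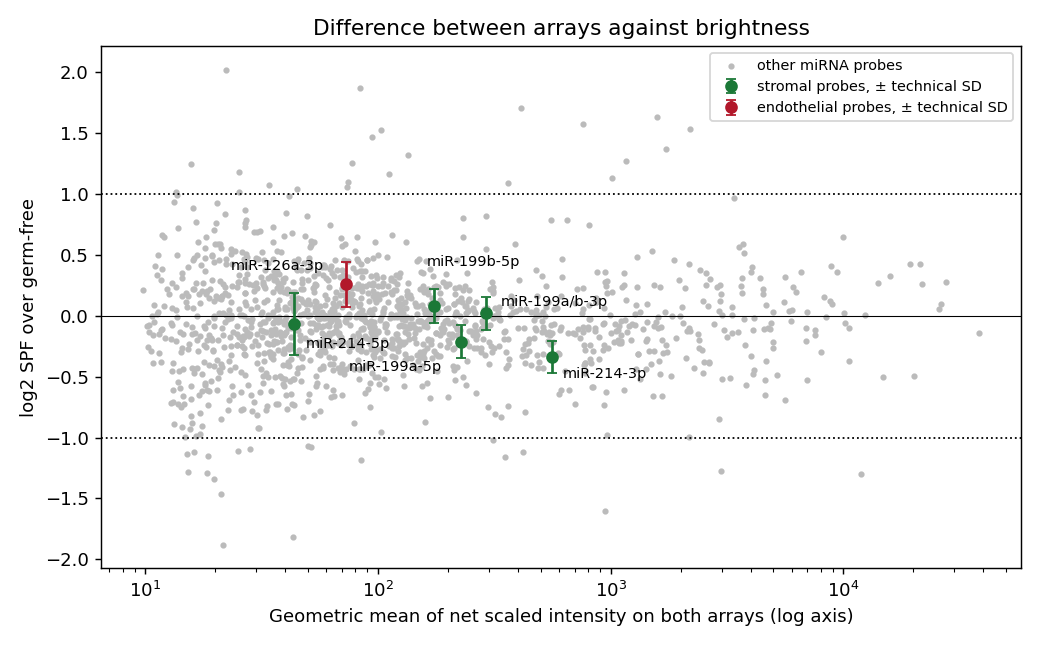
Log2 SPF over germ-free against the geometric mean of net scaled intensity (log axis) for the 1464 miRNA probes above the floor on both arrays, with dotted lines at 2-fold. The 5 stromal probes (green) and miR-126a-3p (red), with bars of 1 technical SD, run from -0.34 to 0.26, where 68.2% of the probes lie within 0.34 of 0.

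Control probes of the members' brightness also differed between the 2 arrays. S-Probe27 averaged 327.7 ± 15.0 on the SPF array and 280.1 ± 20.3 on the germ-free array (SD, 8 spots), a log2 value of 0.23. S-Probe6 averaged 56.0 ± 4.28 on the SPF array and 65.7 ± 6.77 on the germ-free array, a log2 value of -0.23. S-Probe7 averaged 42.8 ± 4.60 on the SPF array and 37.7 ± 7.07 on the germ-free array, a log2 value of 0.18. The files do not say what these probes bind. Of the members, miR-214-3p and miR-126a-3p had larger absolute values than all 3 of these controls, but none of the 3 was as bright as miR-214-3p. The 4 bright control probes were all higher on the SPF array, with log2 values from 0.08 to 0.14. With scaling on those 4 probes all 5 stromal probes lay below 0, miR-214-3p at -0.45, and miR-126a-3p was at 0.14.

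Ratios between members within an array need no scaling between arrays. miR-214-3p over miR-214-5p was 11.7 on the SPF array and 14.0 on the germ-free array, a log2 difference of -0.27 (technical SD 0.28). miR-199a-5p over the shared 3p probe was 0.717 on the SPF array and 0.843 on the germ-free array, a log2 difference of -0.23 (technical SD 0.19). The 3p probe was thus the brighter one of each pair on both arrays, with the 3p probe of miR-199a also reading miR-199b. Between the miRNAs that share the Dnm3os transcript, miR-214-3p over miR-199a-5p was 2.37 on the SPF array and 2.58 on the germ-free array, a log2 difference of -0.12 (technical SD 0.19). miR-214-3p over the endothelial miR-126a-3p was 6.23 on the SPF array and 9.40 on the germ-free array, a log2 difference of -0.59 (technical SD 0.23). With local background subtracted the difference of this last ratio was 1.52, that of miR-214-3p over miR-214-5p 0.62, that of miR-214-3p over miR-199a-5p -1.87, and the ratio of miR-199a-5p to the shared 3p probe had no value. The first 2 of these values have the opposite sign to those with the blank mean.

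The scanner also recorded a local background around each spot, and it was high at several of these probes. At miR-199a/b-3p it was 81.7% of the signal on the SPF array and 118.6% on the germ-free array. At miR-199a-5p it was 76.3% on the SPF array and 95.0% on the germ-free array. At miR-126a-3p it was 94.4% on the SPF array and 85.4% on the germ-free array. At miR-214-3p, where the share was the lowest of the 9 probes, it was 37.0% on the SPF array and 56.7% on the germ-free array. At miR-199b-5p it was 50.3% on the SPF array and 71.1% on the germ-free array. The median over all miRNA probes was 73.2% on the SPF array and 74.8% on the germ-free array. The shares at miR-214-3p and miR-199b-5p lay under these medians on both arrays.

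When the local background was subtracted instead of the blank mean, miR-199a-5p was at 1.90, miR-199b-5p at 0.61, miR-214-3p at 0.04, miR-214-5p at -0.59 and miR-126a-3p at -1.49. miR-199a/b-3p had no value, because its local background exceeded its signal on the germ-free array. Under this setting the bright control spots spread by 1.34 on the log2 scale, against 0.092 with the blank mean, and 5 of their spots had no value. The direction of miR-214-3p, miR-126a-3p and miR-199a-5p therefore depended on how background was removed, and the other settings tried left miR-214-3p below 0 and miR-126a-3p above 0.

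**Figure D3:**
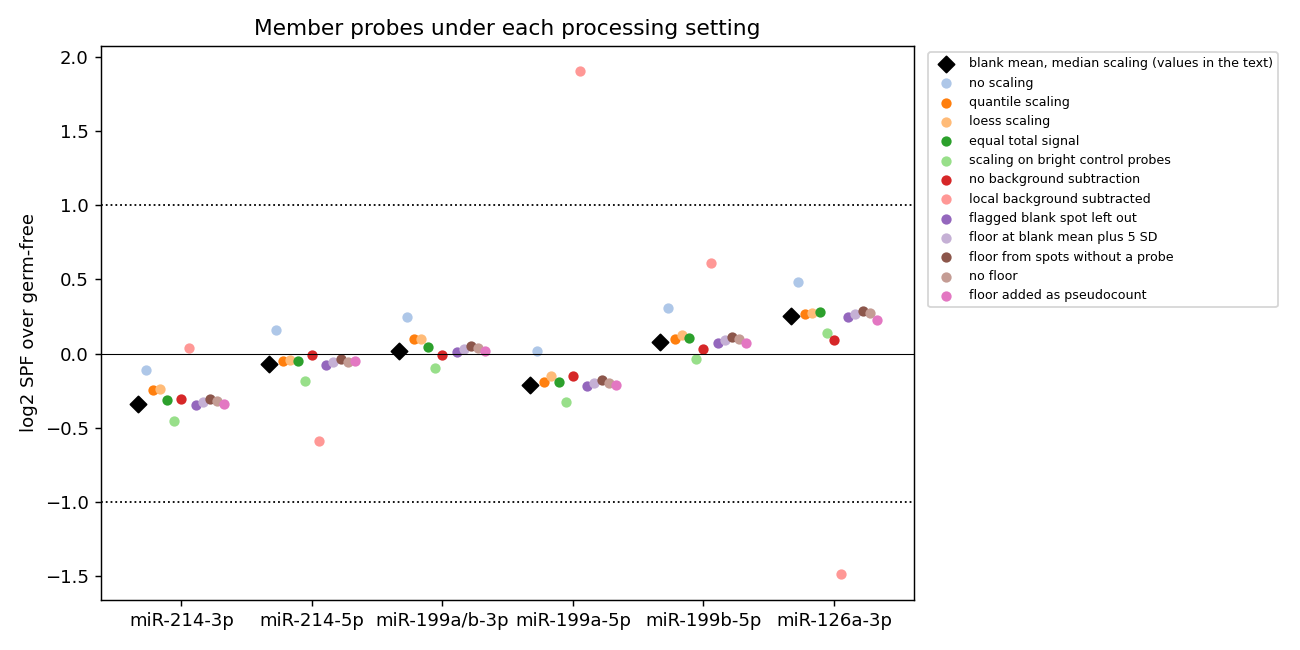
Log2 SPF over germ-free of the 6 member probes above the floor on both arrays, under each processing setting (circles) and with blank-mean background and median scaling (black diamonds), with dotted lines at 2-fold. With local background subtracted miR-199a-5p lies at 1.90 and miR-126a-3p at -1.49, and under the other settings the 6 probes stay between -0.45 and 0.48.

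Of 24 probes of 11 other miRNAs abundant in mesenchymal cells, 17 lay above the floor on both arrays, with a median of -0.05, 7 above 0 and 10 below. They ran from miR-10b-5p, encoded in a Hox cluster, with 236.2 on the SPF array and 528.4 on the germ-free array (log2 -1.16), to miR-22-3p with 724.5 on the SPF array and 525.5 on the germ-free array (log2 0.46). miR-10b-5p was the 1 probe of this list past 2-fold. The 17 probes summed to 9451 on the SPF array and 13471 on the germ-free array. miR-29a-3p, the brightest of them, had 4434 on the SPF array and 7143 on the germ-free array (log2 -0.69). Of 22 probes of 10 miRNAs linked to endothelium or angiogenesis, 17 lay above the floor on both arrays, with a median of 0.09, 12 above 0 and 5 below. They ran from miR-210-5p, the minor arm of a hypoxia-induced miRNA, at -0.24 to miR-222-3p, which represses Kit, at 1.26. Both arms of miR-222 were past 2-fold, with miR-222-5p at 1.24 (technical SD 0.71). The signals of miR-222-5p, 186.7 on the SPF array and 138.8 on the germ-free array, lay under the level of spots without a probe. The 17 vascular probes summed to 19082 on the SPF array and 15814 on the germ-free array. The signs of both list medians changed with the processing, between -0.17 and 0.17 for the mesenchymal list and between -0.03 and 0.31 for the vascular list.

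Markers of the other cells in such an isolate differed between the same arrays, and their part in the members' values was not tested. All 17 epithelial probes above the floor on both arrays, of 19, were above 0 and 10 were at least 2-fold higher, with a median of 1.09 and summed net intensities of 15144 on the SPF array and 5810 on the germ-free array. They ran from miR-200c-5p at 0.12 to miR-192-3p at 2.02 (technical SD 0.62). The germ-free signal of miR-192-3p, 139.6, lay under the level of spots without a probe. With the floor set by the spots without a probe, 11 epithelial probes remained, with a median of 1.20. All 9 lymphocyte probes were below 0, with a median of -0.44 and sums of 9364 on the SPF array and 21326 on the germ-free array. They ran from miR-150-5p at -1.30 to miR-181a-1-3p at -0.01. Most of both sums came from miR-150-5p alone, with 7594 on the SPF array and 18699.5 on the germ-free array. The lymphocyte median was 0.34 with local background subtracted, where the epithelial median was 0.53.

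Among the 5 myeloid and pan-leukocyte probes above the floor on both arrays, of 8, 2 were above 0 and 3 below. Their median was -0.65, from miR-142a-3p at -0.998 to miR-147-3p at 0.93 (technical SD 0.78). The sums were 6318 on the SPF array and 9528 on the germ-free array. The signals of miR-147-3p, 179.9 on the SPF array and 138.2 on the germ-free array, lay under the level of spots without a probe. miR-223-3p, a bright marker of neutrophils and monocytes, was above 0, with 1045 on the SPF array and 622.3 on the germ-free array (log2 0.75, technical SD 0.13). With no background subtracted the median of this list was -0.04, and with the local background subtracted it was -0.06. All 6 erythroid and platelet probes were below 0, with a median of -0.45, from miR-144-3p at -0.77 to miR-486a-5p/486b-5p at -0.09, and sums of 6501 on the SPF array and 8107 on the germ-free array. Of the 7 striated muscle probes 3 lay under the floor on both arrays, among them miR-1a-3p. The 3 above it on both had a median of 0.06, from miR-133b-3p at -0.13 to miR-133b-5p at 0.27, with sums of 115.8 on the SPF array and 112.5 on the germ-free array. The 5 stromal member probes summed to 1223 on the SPF array and 1375 on the germ-free array. The muscle median changed sign with the processing, and the epithelial median stayed between 0.38 and 1.32.

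**Figure D4:**
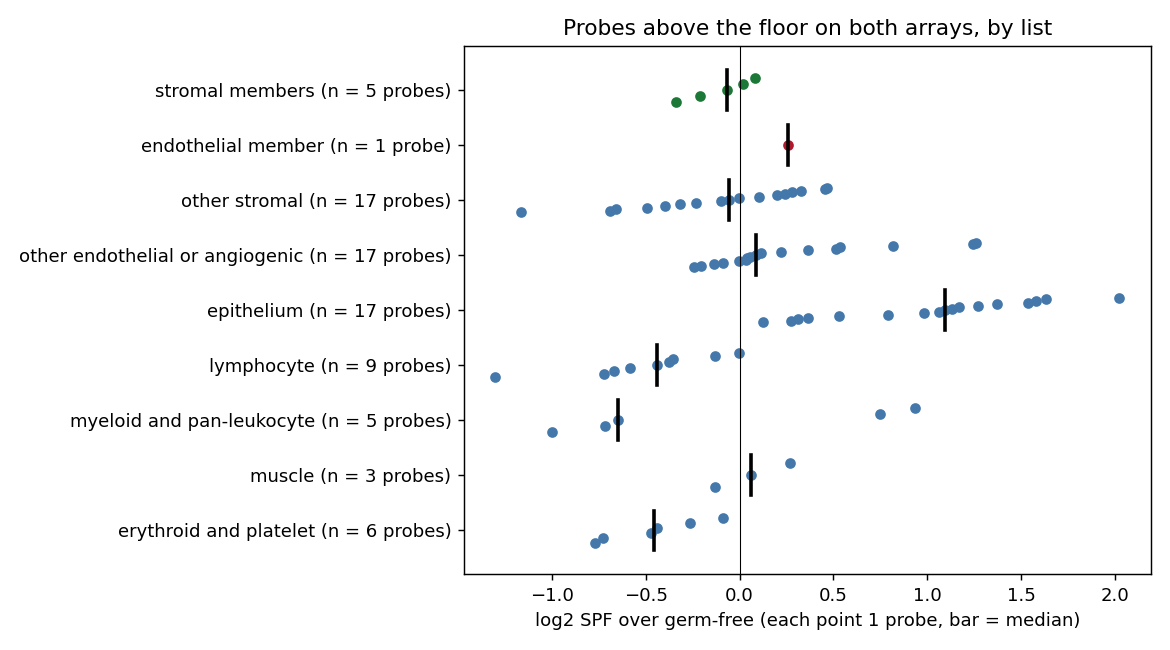
Log2 SPF over germ-free of the probes above the floor on both arrays, by list, with 1 point per probe and a bar at the median. The median of the stromal probes (-0.07) and the value of miR-126a-3p (0.26) lie between the medians of the lymphocyte list (-0.44) and the epithelial list (1.09), while single probes of these lists overlap the members; with local background subtracted the stromal median was 0.32, the lymphocyte median 0.34, the epithelial median 0.53 and miR-126a-3p at -1.49.

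The miRNA that shares the seed of miR-214-3p, miR-761 (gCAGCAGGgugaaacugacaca, Mir761 on chromosome 4), was far weaker. Its net scaled intensity was 30.8 on the SPF array and 39.0 on the germ-free array, a log2 value of -0.34, and its signal on the SPF array (194.4) lay under the level of spots without a probe. The 3 probes nearest to miR-214-3p in net intensity on both arrays were miR-378d, miR-1843b-3p and miR-5620-3p, at log2 distances of 0.085, 0.088 and 0.089. The 3 nearest to miR-126a-3p were the shared probe of miR-297a-3p, miR-297b-3p and miR-297c-3p, miR-365-3p and miR-6953-3p, at distances of 0.021, 0.042 and 0.062. With 2 arrays such likeness rests on 2 values per probe.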

How the data were processed

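Per the labels, a Qiagen kit was used for extraction and an Exiqon kit for labelling with the dye Hy5. Per the file headers, the authors deposited 2 intensities at 635 nm for each of 3200 spots in 32 blocks, the spot median and the median of the local background, from scans at 3 gains. The deposited intensities show no background subtraction or scaling. Platform and scanner are not named in those sources. Groups follow the sample titles.

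The mean of the BLANK spots was subtracted, the floor was set at mean + 2 SD and SPF values were median-scaled (factor 0.854) with Python 3.11.15, numpy 2.4.6 and pandas 2.3.3. Loess (span 0.4) used statsmodels 0.14.6. No test was run, since each group has 1 array. The technical SD of a difference combines the log2 SD of 4 control probes (net intensity above 500 at each of 8 spots) with the blank SD of each array, and their number limits its precision. The steps were tested on 10 simulated array pairs. RefSeq gave mature sequences for 8 of the 10 member names. Named miRNAs are all member probes, their seed-mates, and the highest and lowest of each list. Also named are the 3 probes nearest to the brightest stromal and endothelial probe. miR-1a-3p, miR-29a-3p, miR-222-5p and miR-223-3p were added after their values were seen. The members and lists were chosen with earlier results of these data known.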

Additional observations from a re-analysis of the deposited data

How the results depend on the processing

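The stromal median of -0.07 was 0.16 without scaling, which moved the median of all shared miRNAs from -0.05 to 0.18, and 0.32 with local background subtracted. Under the other 11 alternatives it stayed between -0.18 and -0.01 and moved by less than the technical SD. The endothelial value of 0.26, which is miR-126a-3p alone, was 0.48 without scaling and -1.49 with local background subtracted. Without a floor miR-126a-5p joined it and the median was -0.69. The count of members at least 2-fold apart was 0, except 2 of 5 with local background subtracted and 1 of 7 without a floor. The count of all shared miRNAs at least 2-fold apart was 43. It was 9 without background subtraction, 148 with local background, 27 with a floor at mean + 5 SD, 23 with a floor set by the spots without a probe, 151 without a floor, 24 with the floor added as a pseudocount and 180 at 1.5-fold. The cause of these shifts was not tested, except that a higher floor leaves fewer miRNAs, 1219 and 1041, and no floor leaves more, 1689. Quantile and loess scaling, equal total signal and leaving out the 1 flagged blank spot moved none of these values beyond the technical SD or, for counts, 1.5 times. No paired analysis was possible because each group has 1 array. Signal over background allowed no value for miR-126b and a bound for miR-126a-5p.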
